A study of Rattus norvegicus with 6 samples.

Results

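Radial glia and astrocytes were read through 10 genes for transport, metabolism and secretion, with filament genes left aside, in rat neural stem/progenitor cells (NSPCs) on carbon films of 3 electrical conductivities. The members were Fabp7, Slc1a3, Slc1a2, Glul, Aldoc, Apoe, Clu, Gja1, S100b and Sparcl1. They were found by gene symbol, and each matched 1 of the 17048 rows of the count tables. Of the 10, 9 had a count in at least 1 library, and these 9 were also the ones that passed the filter on low counts, among 7729 rows that did.

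The NSPCs were wild type, came from the telencephalon of rat embryos, and were kept in a medium that maintains stemness. They were sequenced after 24 h on films labelled “High”, “Medium” or “Low” for conductivity, with 2 libraries per film and 6 in all. The films were carbon nanotube and graphene oxide nanoribbon layers, coated with poly-D-lysine and laminin. They were set to their conductivity by the length of their oxidation, so that conductivity and oxidation cannot be told apart here. The paper adjusted poly-D-lysine by film to reach comparable laminin amounts, and in its adhesion assay the concentration was lower on Medium than on High and Low. A difference of Medium from the other films therefore cannot be told apart from this coating step either. The libraries analysed here hold no film-free control, and “High” served as the reference, because the study sets its supraphysiological conductivity against the neural tissue-like “Medium” and “Low”. The 6 libraries held between 5124863 and 6213676 counts. Rows with a count were fewest in Medium replicate 1 (5355) and most in Medium replicate 2 (7809). The share of ribosomal RNA in a library was 26.1% and 38.4% on High, 7.27% and 13.04% on Medium, and 7.16% and 7.64% on Low. The Wilson 95% interval of each share was within 0.041 percentage points, which covers counting error only. The share therefore separated High from the other films in the same way as the main comparison did.

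Radial glia are the dividing stem cells that line the ventricles of the embryonic brain, and many of their descendants become astrocytes. Both cell types take up extracellular glutamate, carry fatty acids and cholesterol, and couple to their neighbours through gap junctions. Fabp7 is known as a marker of radial glia that declines as the cells mature, whereas Slc1a2, Glul, Aldoc, S100b and Sparcl1 become abundant as astrocytes mature, and Slc1a3 spans both stages.

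The results below turned on Slc1a3 and Fabp7, and the bases before their start sites are shown so that the 2 genes can be set side by side. Each sequence is the 250 bases upstream of the first start listed by RefSeq on build GRCr8, read 5′ to 3′ on the strand of the gene. Fabp7 lies at chr20:37669356-37669605 on the plus strand and Slc1a3 at chr2:59557809-59558058 on the minus strand. Capitals mark TGCCAA, the reverse complement of the nuclear factor I half-site TTGGCA, and TTCCCA, the reverse complement of TGGGAA, the core that the Notch effector RBPJ binds.
Fabp7: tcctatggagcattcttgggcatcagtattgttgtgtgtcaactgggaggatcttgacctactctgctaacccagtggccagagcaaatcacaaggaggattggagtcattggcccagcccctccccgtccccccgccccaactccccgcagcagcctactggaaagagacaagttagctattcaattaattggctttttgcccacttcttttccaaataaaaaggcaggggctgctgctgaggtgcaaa
Slc1a3: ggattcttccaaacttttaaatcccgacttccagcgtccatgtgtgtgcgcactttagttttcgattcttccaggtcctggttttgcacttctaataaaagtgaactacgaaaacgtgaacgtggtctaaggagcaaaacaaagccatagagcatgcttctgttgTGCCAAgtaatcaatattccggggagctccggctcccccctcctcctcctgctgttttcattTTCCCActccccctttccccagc
Both strands were searched for 5 short motifs in the promoters of the 9 members that the table held, which leaves out Clu. The half-site TTGGCA was found in 3 of the 9 (Slc1a3, Apoe and S100b), against 11.7% of 27457 promoters. TGGGAA was found in 2 (Slc1a3 and Apoe), against 21.6%. None of the 9 held the SOX motif ACAATG (10.9% of all promoters), the STAT motif TTCNNNGAA (7.52%) or TATAAA (13.1%). A match describes letters and no binding was measured.

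The labelled cell type was checked against its markers. Of 6 neural stem cell markers, Sox1 was not in the tables and Msi1 was listed at 0, while Vim, Nes, Sox2 and Pax6 had counts. Levels are given as CPM, a gene's counts scaled to a common library size after the trimmed mean of M-values (TMM) correction. The summed level of the stem cell markers was 2539 and 2329 CPM on High, 4107 and 3935 on Medium, and 3526 and 4577 on Low. Of 31 further astrocyte genes, 28 were in the tables and 21 of them had a count. Some that define mature astrocytes were at or near 0, and they are named here because of their values. Aqp4 (the water channel of astrocyte endfeet), Aldh1l1 (a folate enzyme) and Gjb6 (connexin 30) were at 0 in all 6 libraries. Gfap, the astrocyte filament gene, was detected only once, with 70 counts in the first High library. Against a floor of 3 counts per library, its mean on High was at least 15.4-fold higher than on Low and at least 14.3-fold higher than on Medium, and both bounds rest on 1 library. The name of the set describes the genes and does not say that astrocytes were present.

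No member gene passed the test between the films. By edgeR's quasi-likelihood test over 7729 genes, 0 of the 9 members passed an adjusted p of 0.05 in Low and Medium against High, where 0.129% of all genes did. The count was also 0 in Low against High (0.0518% of all genes), in Medium against High (0.0129%) and in Low against Medium (0%). DESeq2 called 0 members in each of the 4 comparisons as well, where it called 4.85%, 3.88%, 3.97% and 1.5% of all genes. At an unadjusted p below 0.05 edgeR gave 0, 0, 0 and 1 members in the same order, against 5.5%, 4.27%, 4.04% and 1.51% of all genes, and the 1 was Fabp7. The comparisons against High share the 2 High libraries. The groups are small. An exact permutation test of a single gene could not go below 0.133 for 4 libraries against 2, or below 0.333 for 2 against 2.

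**Figure D1:**
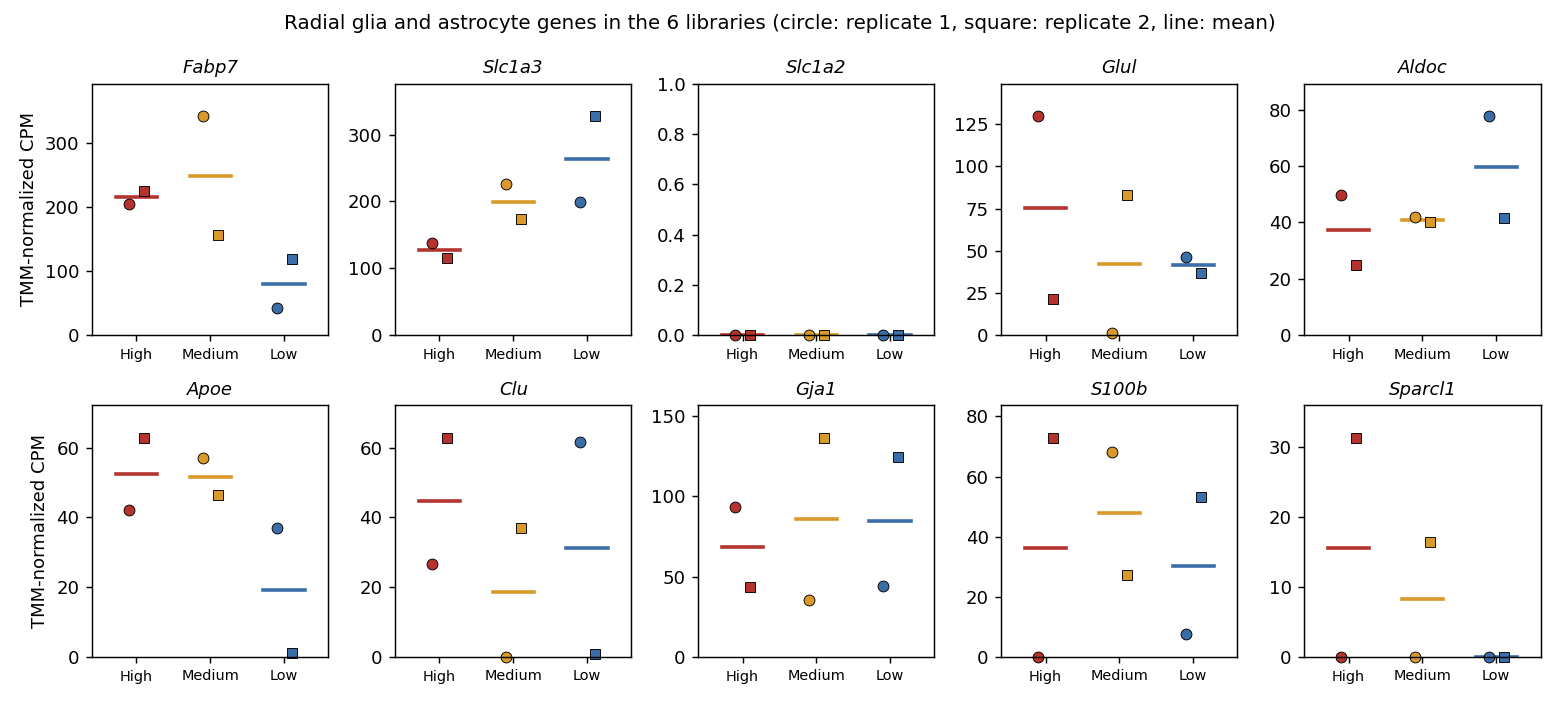
Level of each of the 10 member genes (vertical axis, TMM-normalized CPM) in the 6 libraries, grouped by film on the horizontal axis; circles are replicate 1, squares replicate 2 and lines the mean of the 2. Slc1a3 and Fabp7 reached the highest levels, Slc1a2 was at 0 throughout, and in Glul, Clu, S100b and Sparcl1 the 2 replicates of a film stood far apart.

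Slc1a3 encodes GLAST, the glutamate transporter of radial glia and astrocytes. It had 671 and 485 counts on High, 1315 and 1057 on Medium, and 1375 and 1949 on Low. The level was 127 CPM ± 15.9 (SD, n = 2) on High, 200 CPM ± 37.0 (SD, n = 2) on Medium and 263 CPM ± 90.5 (SD, n = 2) on Low. Both High libraries lay below the 4 others, and the Medium and Low values overlapped. The mean on Low was 2.07 times that on High. The fitted difference on the log2 scale was 0.85 ± 0.46 (SE) for Low and Medium against High, with an adjusted p of 0.801 by edgeR, and 1.05 ± 0.52 for Low against High, with an adjusted p of 0.899. Neither passed the test. Taking the ribosomal RNA rows out before scaling gave 0.84 for Low and Medium against High, and scaling to library size alone gave 1.24. Slc1a3 was the only member whose Low and Medium libraries did not overlap those of High, 1 of 9, where 18.2% of all genes did not overlap, 8.06% with the higher values on Low and Medium and 10.1% with the lower.

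Slc1a2, which encodes GLT-1, the main glutamate transporter of mature astrocytes, had 0 counts in all 6 libraries. A count of 0 allowed up to 3 counts, which was at most 0.716 CPM, the limit of the shallowest library after scaling (High replicate 2). It is the only member without a count. Slc1a3 was thus detected in every library and Slc1a2 in none.

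Glul, glutamine synthetase, turns the glutamate taken up by glia into glutamine. Its counts were 629 and 90 on High, 7 and 506 on Medium, and 321 and 221 on Low. Levels within a film differed by 6.04-fold on High and by 69.1-fold on Medium, and the groups overlapped in all comparisons. The log2 difference for Low and Medium against High was −0.85 ± 1.53 (SE), which was smaller than its error.

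Fabp7 encodes the brain fatty acid-binding protein, the classical radial glia marker. It had 995 and 944 counts on High, 1991 and 952 on Medium, and 292 and 706 on Low. The level was 215 CPM ± 14.3 (SD, n = 2) on High, 249 CPM ± 131 (SD, n = 2) on Medium and 80.4 CPM ± 53.9 (SD, n = 2) on Low. Both Low libraries lay below the other 4, while the Medium libraries straddled those of High. The mean on Low was 0.374 times that on High and 0.323 times that on Medium. On the log2 scale the difference was −1.42 ± 0.66 (SE) for Low against High and −1.63 ± 0.66 (SE) for Low against Medium. The unadjusted p values were 0.0565 and 0.0336 by edgeR, and the adjusted values 0.899 and 1, so that neither passed. Medium against High gave 0.21 ± 0.65. The order of the film means was Medium, High, Low for Fabp7 and Low, Medium, High for Slc1a3, and in both orders the first pair did not differ beyond its spread.

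The numbers of Slc1a3 and Fabp7 counts in 1 library can be divided by each other, which cancels the scaling between libraries. This ratio was chosen after the values were seen and carries no test. It was 0.674 and 0.514 on High, 0.660 and 1.11 on Medium, and 4.71 and 2.76 on Low. The means were 0.594 ± 0.114, 0.885 ± 0.318 and 3.73 ± 1.38 (SD, n = 2 each). Both Low libraries stood above the other 4, and High and Medium overlapped. The ratio is read between libraries only, since the share of transcripts captured may differ between the 2 genes. These are bulk samples, in which fewer cells of a type and less RNA per cell cannot be told apart.

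**Figure D2:**
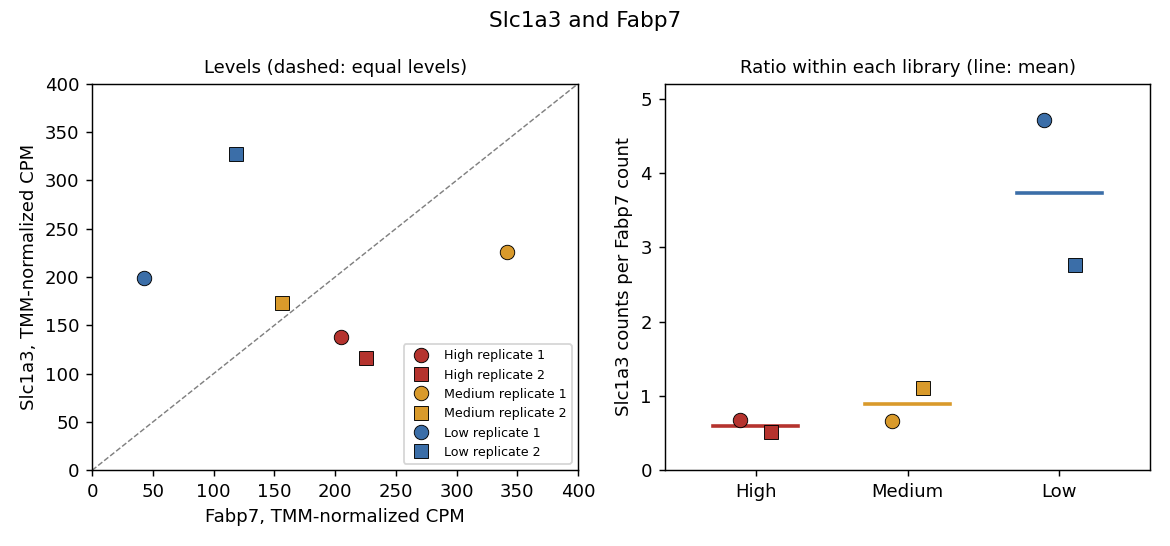
Left, Slc1a3 against Fabp7 in each library (both axes TMM-normalized CPM, dashed line at equal levels); right, Slc1a3 counts per Fabp7 count (vertical axis, no unit) by film, with points for libraries and lines for means. The Low libraries lie at 4.71 and 2.76, and the other 4 at 1.11 or below.

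Apoe and Clu encode the apolipoproteins E and J, through which astrocytes export lipid. Apoe had 205 and 263 counts on High, 332 and 283 on Medium, and 256 and 7 on Low. Both Low libraries were below the 4 others in CPM, but the first, at 37.1 CPM, was near the lowest High library, at 42.2 CPM, and only the second was far off, at 1.17 CPM. The replicates on Low differed by 31.6-fold. The log2 difference of −1.45 for Low against High had a standard error of 1.96. Clu had 130 and 263 counts on High, 0 and 226 on Medium, and 425 and 5 on Low. Its groups overlapped in every comparison, and the same Low library (replicate 2) was low in both apolipoprotein genes.

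Gja1 encodes connexin 43, the gap junction protein of radial glia and astrocytes. It was found in every library, with 452 and 181 counts on High, 205 and 830 on Medium, and 303 and 743 on Low. The film means were close, at 68.2 CPM ± 35.3, 85.7 CPM ± 71.4 and 84.3 CPM ± 57.1 (SD, n = 2 each). All groups overlapped, and the log2 difference for Low and Medium against High was 0.32 ± 0.98 (SE).

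Aldoc, the brain form of the glycolytic enzyme aldolase, had 241 and 104 counts on High, 245 and 244 on Medium, and 536 and 248 on Low. Its replicates were among the closest of the set, at most 2.0-fold apart. The log2 difference for Low against High was 0.68 ± 1.56 (SE), with overlapping groups. Aldoa, the ubiquitous aldolase, had 1921 and 1515 counts on High, 1710 and 1268 on Medium, and 1852 and 1648 on Low, and its CPM values on High lay above the other 4 (log2 difference −0.53 ± 0.32, adjusted p = 0.801 by edgeR).

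S100b, a calcium-binding protein of astrocytes, had 0 and 305 counts on High, 398 and 167 on Medium, and 52 and 317 on Low. Sparcl1 encodes hevin, a matricellular protein that astrocytes secrete at synapses, and had 0 and 131 counts on High, 0 and 100 on Medium, and 0 in both Low libraries. Replicate 2 carried all the Sparcl1 counts of High and of Medium. Against the floor of 3 counts per library, the Sparcl1 mean was at least 33.3-fold higher on High than on Low and at least 17.5-fold higher on Medium than on Low. Each bound rests on 1 library, and the fitted difference did not pass the test (adjusted p = 0.805 for Low and Medium against High by edgeR).

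**Figure D3:**
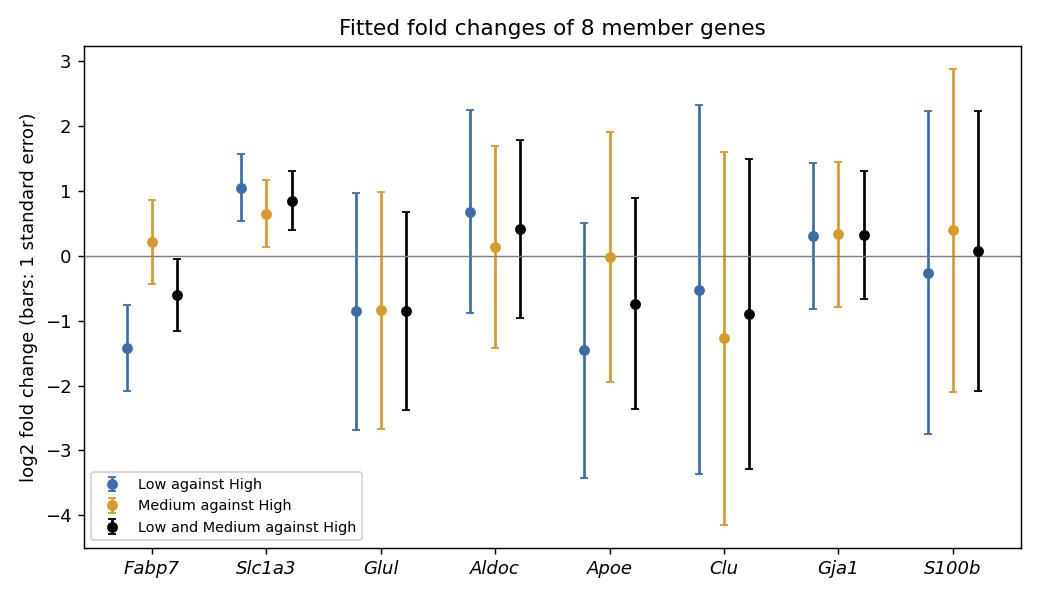
Fitted log2 fold change (vertical axis) of 8 member genes, with bars of 1 standard error, for Low against High, Medium against High, and Low and Medium against High; Slc1a2, which had no counts, and Sparcl1, whose Low libraries were at 0, are left out. Only Slc1a3 and Fabp7 have bars clear of 0 in Low against High, and the bars of Clu and S100b exceed 2 in length on each side.

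Whether the film or the library decided a member's value was read from the gap between replicates. On the log2(CPM + 1) scale the range of the 3 film means was larger than the largest gap between replicates of a film in 2 of the 9 members, Fabp7 (1.69 against 1.46) and Slc1a3 (1.01 against 0.71). This is 22.2% of the members, beside 24.7% of all 7729 genes. The largest gap was 6.20 for S100b, 5.25 for Glul, 5.25 for Clu, 5.01 for Sparcl1 and 4.13 for Apoe, and 1.92 or less for Gja1 and Aldoc. A replicate at 0 beside another of 50 counts or more occurred for S100b and Sparcl1 on High and for Clu and Sparcl1 on Medium. Among all genes tested this was seen in 14.4% on High, 23.4% on Medium and 14.9% on Low. Slc1a3 and Fabp7 were also the members with the most counts, above 88.3% and 87.2% of the genes tested. Summed over the 10 members, the level was 685 and 660 CPM on High, 771 and 716 CPM on Medium, and 516 and 704 CPM on Low.

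In Low against High, 3 of 9 members did not overlap (Slc1a3 higher, Fabp7 and Apoe lower), against 37.4% of all genes, of which 19.4% were higher on Low and 18% lower. In Medium against High it was Slc1a3 alone, 1 of 9, against 34.8% of all genes (16.2% higher on Medium and 18.6% lower). In Low against Medium it was Fabp7 and Apoe, 2 of 9, both lower on Low, against 29% of all genes (16.3% higher on Low and 12.6% lower). Each share is near or below that of all genes.

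Genes of the same processes were read from 9 further lists, and 0 genes of these lists passed the adjusted threshold in any of the 4 comparisons by edgeR. By DESeq2, Vim, Sox2, Nes, Lhx2, Panx1 and Sox9 passed in Low and Medium against High with the higher values on Low and Medium, and Slc3a2, Slc38a2, S100a13 and Fgfr1 were among those with the lower, where DESeq2 called 4.85% of all genes (209 higher and 166 lower). In Low and Medium against High the median log2 difference of all genes tested was −0.12, and that of the 9 members was −0.60, with 4 above 0 and 5 below, where 45.9% of all genes were above 0. Genes named below beyond the 3 most abundant of a list were picked after their values were seen, for an unadjusted p below 0.05 or for being at 0 in all libraries.

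Of 24 further radial glia and neural stem cell genes, 18 could be tested, of which 13 were above 0, with a median of 0.48. Unadjusted p values below 0.05 were reached by 4, all higher on Low and Medium, namely Vim, Sox2, Nes and Lhx2, and 0 were lower, where 5.5% of all genes reached such a p in either direction. Sox2, the stem cell transcription factor, had 1303 and 1116 counts on High, 3484 and 3377 on Medium, and 4869 and 4068 on Low (log2 difference 1.24, adjusted p = 0.212 by edgeR). Nes, the intermediate filament nestin, had 450 and 344 counts on High, 2380 and 1992 on Medium, and 1372 and 1232 on Low (1.64, adjusted p = 0.468 by edgeR). Lhx2, a forebrain progenitor factor, had 508 and 327 counts on High, 1954 and 1646 on Medium, and 2099 and 2039 on Low (1.78, adjusted p = 0.332 by edgeR). In these genes replicates lay close together and both High libraries were below the other 4, as for Slc1a3 and unlike Fabp7. These 4 genes passed the adjusted threshold of DESeq2. Vim was the most abundant, with a log2 difference of 0.58, while Ptn and Dbi, next in abundance, gave 0.05 and −0.44. The Notch target Hes5 and the outer radial glia gene Hopx were at 0 in all libraries.

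Of the 31 further astrocyte genes, 14 could be tested, with 6 above 0 and 8 below and a median of −0.85, or −0.30 with genes at 0 set to the floor. The most abundant, the secreted protease inhibitor Cst3, had 43512 and 26934 counts on High, 45919 and 36739 on Medium, and 52471 and 34230 on Low, and its groups overlapped. Mt3, the brain metallothionein, and Cpe, a peptide-processing enzyme, overlapped as well, with log2 differences of 0.29 and 0.03.

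Of 17 genes for glutamate and glutamine handling, 13 could be tested, 5 above 0 and 8 below, with a median of −0.52. Those with an unadjusted p below 0.05 were 3, all lower on Low and Medium, again beside 5.5% of all genes. Slc3a2, the heavy chain of several amino acid exchangers, had 5610 and 2416 counts on High, 955 and 1415 on Medium, and 1692 and 891 on Low (log2 difference −2.13 ± 0.36 SE, adjusted p = 0.0781 by edgeR). Slc7a11, the cystine/glutamate exchanger that pairs with Slc3a2, had 1586 and 2016 counts on High, 151 and 535 on Medium, and 946 and 67 on Low (−2.64, adjusted p = 0.647 by edgeR). Slc38a2, a glutamine carrier, had 996 and 1341 counts on High, 402 and 397 on Medium, and 939 and 562 on Low (−1.58, adjusted p = 0.685 by edgeR). All 3 had both High libraries above the other 4 in CPM, the reverse of the glutamate transporter Slc1a3. The neutral amino acid carrier Slc1a5 gave −0.52 and the mitochondrial aminotransferase Got2 gave 0.35.

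**Figure D4:**
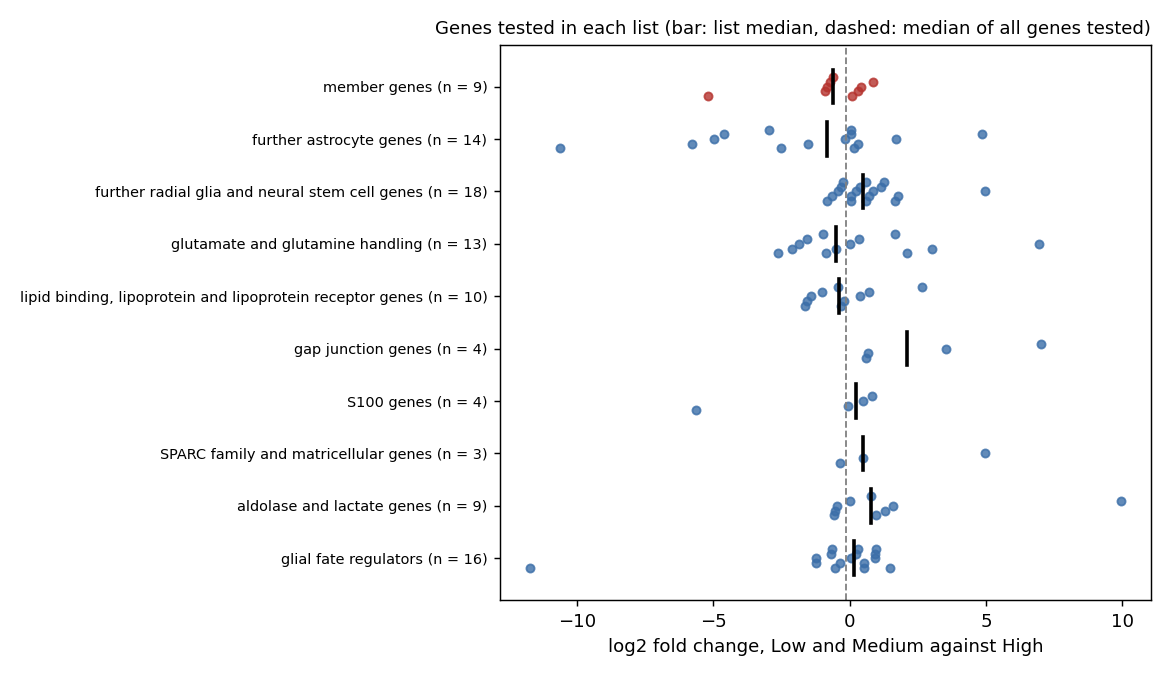
Log2 fold change of Low and Medium against High (horizontal axis) for each gene tested in the member set (red) and in 9 further lists (blue); black bars are list medians and the dashed line the median of all genes tested, −0.12. The radial glia and neural stem cell list has its median at 0.48 and the members at −0.60, and single points beyond 5 on either side mostly come from genes with libraries at 0.

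The other lists held fewer genes. Of 10 genes tested for lipid binding and lipoproteins, 3 were above 0 and 7 below, with a median of −0.39. Among them Fabp5, the epidermal relative of Fabp7, had 1135 and 1255 counts on High, 3475 and 2573 on Medium, and 1983 and 2759 on Low (log2 difference 0.71), and the lipoprotein receptor gene Lrp1 gave −0.34. Of 13 gap junction genes, 4 could be tested and all were above 0, with a median of 2.11, or 0.78 at the floor. The channel gene Panx1 had 0 and 2 counts on High, 208 and 415 on Medium, and 194 and 83 on Low (unadjusted p = 0.0628, adjusted p = 0.801 by edgeR), whereas the tight junction scaffold gene Tjp1 overlapped, at 0.60. Of 12 S100 genes, 4 could be tested, 2 above and 2 below 0, with a median of 0.21. S100a13 had 311 and 101 counts on High, 189 and 240 on Medium and 0 on Low, while S100a10 and S100a16 gave −0.05 and 0.47, and S100a6 had 1227 counts in Medium replicate 2 and 1 or 0 elsewhere. In the SPARC and matricellular list 3 of 12 could be tested, with a median of 0.50. Fstl1, Sparc and Tnc all overlapped.

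Of 9 aldolase and lactate genes tested, 5 were above 0 and 4 below, with a median of 0.79. Ldha, the lactate dehydrogenase subunit that favours lactate production, was the 1 with an unadjusted p below 0.05 (log2 difference 0.95, adjusted p = 0.801 by edgeR), and Ldhb gave −0.48. Of 16 glial fate regulators tested, 9 were above 0 and 7 below, with a median of 0.14. Sox9, the factor that opens gliogenesis, had 2882 and 2605 counts on High, 5555 and 8480 on Medium, and 6557 and 8737 on Low (0.97, adjusted p = 0.517 by edgeR). Fgfr1, a receptor for fibroblast growth factor, had 85 and 563 counts on High and 0 in the other 4 libraries. Stat3, which relays the cytokine signal for astrocyte formation, had 1183 and 1239 counts on High, 205 and 994 on Medium, and 587 and 1067 on Low, with both High libraries the highest in CPM (−1.24, adjusted p = 0.801 by edgeR). Id1, a target of bone morphogenetic protein signalling, gave −0.69 and overlapped.

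Several list medians turned with single choices of processing in Low and Medium against High. The filter on low counts was applied anew in each alternative, so a median could cover other genes than in the main fit. The median of the further astrocyte genes was 0.40 without High replicate 1 (16 genes) and −2.50 when Medium replicate 2 was left out (17 genes), against 14 genes in the main fit. A change of library and a change of genes are not separated in these medians. For glutamate and glutamine handling it was 0.50 without High replicate 2 and 0.001 with no filter on low counts, and for the lipid list it was 0.55 without High replicate 1 and 0.62 with the replicate number as a block. The SPARC and matricellular list, with 3 genes, gave −3.58 without Medium replicate 2, −0.33 without High replicate 2, −0.0089 without Low replicate 1 and 2.66 without High replicate 1. The S100 list gave −0.69 without Medium replicate 2, and the glial fate regulators gave −0.62 without Medium replicate 2, −0.37 without High replicate 2, −0.31 without Low replicate 2 and −0.29 with the block. The median of the aldolase and lactate genes was above 0 in all alternatives run, from 0.71 to 4.41 (without High replicate 1), and so was that of the gap junction genes, from 1.12 to 3.57. Without Medium replicate 2 the median of all genes itself was −0.63. The further radial glia and neural stem cell genes then had a median of −0.017, and in all alternatives run their median lay above that of all genes, by 0.33 to 0.76.

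The genes whose levels were most like those of a member were sought for the 4 members with at least 50 counts in every library, among 3346 genes, by Pearson's r over the 6 libraries. With 6 points many genes reach a high r, and 57, 34, 27 and 25 genes were above 0.9 for Fabp7, Slc1a3, Aldoc and Gja1. The nearest to Fabp7 were Fermt2 (0.985), Top2a (0.982) and Fgd1 (0.981). Top2a, a topoisomerase of dividing cells, had 609 and 491 counts on High, 1003 and 243 on Medium, and 2 and 146 on Low. The nearest to Slc1a3 were Nudt4 (0.974), Cdk11b (0.973) and Yipf2 (0.963). For Aldoc they were Mpv17l2 (0.976), Psme4 (0.967) and Dkc1 (0.967), and for Gja1 Hsbp1 (0.961), Cct2 (0.959) and Tmem109 (0.947). No gene was shared between these 4 short lists, and no member was in them.

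Markers of other cells were read beside the members. Of 14 microglia genes, 10 were at 0 in all libraries, including Cx3cr1, Csf1r, P2ry12 and the complement C1q genes, and the summed level was 37.7 and 0 CPM on High, 0 and 4.92 CPM on Medium, and 21.4 and 0 CPM on Low, led by Cd68. The 7 ependymal and choroid plexus genes were at 0 throughout. Of 14 meningeal and vascular genes, 7 were at 0 (Pdgfrb, Pecam1 and Cdh5 among them), and the sum was 156 and 245 CPM on High, 234 and 439 CPM on Medium, and 137 and 117 CPM on Low, led by Igfbp7. Within that list Acta2, smooth muscle actin, had 277 and 423 counts on High, 0 and 0 on Medium, and 0 and 120 on Low, so that both High libraries lay above the other 4, and it passed the adjusted threshold of DESeq2 but not that of edgeR (0.801) in Low and Medium against High. The summed levels of the microglia list and of the meningeal and vascular list overlapped between High and the other films. Of 13 neuronal genes, Nefl, Rbfox3 and Syt1 were at 0, and the sum was 153 and 55.3 CPM on High, 133 and 275 CPM on Medium, and 327 and 193 CPM on Low, led by Gap43. Of 8 neuronal progenitor genes, 5 were in the tables and Neurod1 and Neurod4 were at 0. Their sum was 369 and 242 CPM on High, 175 and 148 CPM on Medium, and 295 and 175 CPM on Low, led by Btg2. The oligodendrocyte lineage list held 11 genes, with Sox10, Mag and Mobp at 0. Their sum was 351 and 439 CPM on High, 691 and 605 CPM on Medium, and 838 and 652 CPM on Low, led by Olig2. Both High libraries lay below the other 4 in Olig2 as well. In Low and Medium against High its log2 difference was 0.97, with an unadjusted p of 0.0174 and an adjusted p of 0.778 by edgeR. Olig2 passed the adjusted threshold of DESeq2 in that comparison. The oligodendrocyte lineage sum and that of the neural stem cell markers moved between the films in the same direction as Slc1a3, and the ribosomal RNA share in the opposite one. In Low and Medium against High, 4 of 5 neuronal genes tested were above 0, with a median of 1.65. All 3 neuronal progenitor genes tested were below 0, with a median of −1.90. The sums of these 2 lists overlapped between High and the other films. The part of the cell markers in the Slc1a3 values was not tested.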

How the data were processed

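Total RNA was read by QuantSeq 3′ sequencing, which reads transcripts from their 3′ ends, and a longer transcript therefore does not collect more counts. The authors deposited raw counts per gene for each library, per the file headers, before their own TMM and CPM scaling. The submitters' processing notes name Bowtie2, bedtools and build rn6, and the methods count unique and multiple alignments together, so that near-identical genes can share reads. Removal of duplicates or use of molecular identifiers is not given in the sources used here. Rows that name no gene were 0, columns of other samples were 0, and 167 rows repeat a symbol, none of them a member.

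Counts were tested with edgeR 4.0.16 (limma 3.58.1, R 4.3.3) by the quasi-likelihood test with 1 mean per film over all 6 libraries, after filterByExpr with a minimum count of 10 and TMM scaling, with Benjamini-Hochberg adjustment over 7729 rows and a threshold of 0.05. The biological coefficient of variation was 1.43 (dispersion 2.04), with 3 residual degrees of freedom. No label says that the 2 libraries of a film came from separate cultures, so p-values measure the spread between these libraries, which may be technical. Replicates were not copies of a library (Pearson's r of log2 CPM 0.557, 0.590 and 0.601 for High, Medium and Low). CPM values use TMM-scaled library sizes, a pseudocount of 1 was added on the log2(CPM + 1) scale, and the floor for a gene at 0 was 3 counts per library.

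The members and lists were chosen with earlier results of these data known. Named genes are the members, the 3 most abundant genes of each list, any list gene past the adjusted threshold, and the 3 genes most like each member with at least 50 counts in every library (mean log2 CPM of at least 5). Others were named after their values were seen, and some genes of the lists are not reported here. Alternatives were DESeq2 1.42.0, library sizes alone, ribosomal RNA rows removed, 2 other filters, repeated symbols summed, a replicate block, only the films compared, and leaving out each library. Start-site sequences came from RefSeq (GRCr8), not from the build of the counts.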

Additional observations from a re-analysis of the deposited data

How the results depend on the processing

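No member passed the adjusted threshold under any of the 14 alternatives run, of which the fit of only the films compared was not made for Low and Medium against High. Over the alternatives the lowest adjusted p was 0.250, 0.206 and 0.606 for Slc1a3 in Low and Medium, Low, and Medium against High (DESeq2), 0.162 for Fabp7 in Low against High (DESeq2) and 0.129 for Fabp7 in Low against Medium (without Medium replicate 2). The alternatives of Fabp7 in Low against Medium and of the list medians were chosen after seeing the data. Of 382 fold changes of members under alternatives, 345 kept their direction and 37 reversed, 29 of them on leaving out a library, and the cause was not tested.

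Of the list genes named, Slc3a2 and Slc7a11 passed the adjusted threshold of edgeR in Low and Medium against High with no filter, with a mean count of at least 10, with the replicate block and without Medium replicate 2, Low replicate 1 or Low replicate 2. Slc7a11 also passed without High replicate 1, Slc3a2 without High replicate 2 and without Medium replicate 1, Sox9 with no filter and without Low replicate 1, and Sox2, Lhx2, Sparc and Fstl1 without Medium replicate 2.

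The numbers of genes called over the whole table did depend on the processing. In Low and Medium against High, 10 genes became 375 by DESeq2, 68 with no filter and 56 with a mean count of at least 10. In Low against High, 4 became 300, 34 and 30 under the same alternatives, 0 with library sizes alone, 2 without ribosomal RNA rows and 0 with only the films compared. In Medium against High, 1 became 307, 48 and 40, and 0 with library sizes alone and with only the films compared. In Low against Medium, 0 became 116 by DESeq2 and 5 with no filter. Leaving out each library gave 34 to 242, 19 to 65, 11 to 275 and 0 to 194 genes in the same order of comparisons, and Medium replicate 2, the library with the most rows detected (7809), gave the highest of these in 3 of the 4 when left out.

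The replicate numbers did not pair the libraries: the deviations of same-numbered libraries correlated at 0.001, −0.003 and 0.015 over 7729 genes. With a replicate block the genes called were 57 in Low and Medium against High, 30 in Low against High and 39 in Medium against High, and the log2 difference of Clu became 0.21 and of S100b 0.63 in Low against High, and that of Gja1 −0.048, −0.063 and −0.078 in Low, Low and Medium, and Medium against High. With library sizes alone Apoe gave 0.39 in Medium against High and S100b 0.24 in Low against High, while the median of all genes moved by a like amount, from −0.06 to 0.29 and from 0.02 to 0.42. DESeq2 gave −0.022 for S100b in Low and Medium against High.

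Slc1a3 kept its sign on leaving out each library (0.65 to 1.01, 0.65 to 1.36 and 0.45 to 0.80 in Low and Medium, Low, and Medium against High), as did Fabp7 in Low against High (−2.34 to −0.86) and in Low against Medium (−2.56 to −0.96). Ranges that crossed 0 in Low and Medium against High were −0.0058 to 0.997 for Aldoc, −0.34 to 0.98 for Gja1, −3.41 to 0.97 for Glul, −0.93 to 10.82 for S100b and −9.45 to 4.30 for Sparcl1. In Low against High they were −5.70 to 0.46 for Clu, −0.63 to 0.97 for Gja1, −1.63 to 0.96 for Glul, and −2.27 to 10.49 for S100b. Sparcl1 ran from −10.50 to 0 there, and the 0, counted among the 37, arose because without High replicate 2 neither film held a count. In Medium against High they were −0.27 to 0.73 for Aldoc, −0.28 to 0.29 for Apoe, −0.46 to 0.64 for Fabp7, −0.98 to 0.999 for Gja1, −5.97 to 0.97 for Glul, −0.60 to 11.15 for S100b and −9.45 to 8.61 for Sparcl1. Scaling to library sizes alone moved the median of all genes in Low and Medium against High from −0.12 to 0.26 and that of the members from −0.60 to −0.19. Without Medium replicate 2 the members' median was 0.23 above that of all genes rather than 0.48 below it.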
